A study of Homo sapiens with 6 samples.

Results

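The genes described here are 10 genes that control the passage from G1 into S phase: CCND1, CCND2, CCND3, CCNE1, CCNE2, CDK2, CDK4, CDK6, CDKN1A and CDKN1B. They were chosen by name, as genes that Myc is known to activate or repress, from 20136 protein-coding genes with a basic GENCODE transcription start site (TSS). A peak belonged to a gene when its summit lay within 5 kb of such a start site, and 8 and 8 peaks did so in the parental libraries and 31 and 25 in the TKO libraries.

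Myc occupancy was measured by chromatin immunoprecipitation sequencing (ChIP-seq) with the antibody D3N8F in MDA-MB-231, a human triple-negative breast cancer cell line. Parental 231 cells were compared with TKO cells, the same line after CRISPR-Cas9 knockout of TXNIP, whose product is the thioredoxin interacting protein. The comparison asks whether Myc occupies these genes differently without TXNIP. Each cell line gave 2 Myc libraries with a peak list, and the other 2 of the 6 samples were input chromatin. Both cell lines grew in the same medium without a further treatment named in the labels. The knockout clones were grown from single cells, and whether both TKO libraries came from 1 clone is not given in the sources used here. The peak lists hold no measure of TXNIP, so the knockout was not checked here.

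In G1, D-type cyclins bind CDK4 and CDK6, and E-type cyclins bind CDK2. The resulting kinases phosphorylate the retinoblastoma protein, which releases E2F factors and lets S phase genes be transcribed, while the inhibitors p21 and p27 bind the cyclin-CDK complexes. Myc, as a dimer with Max, binds the E-box CACGTG and related hexamers. It is known to activate several cyclin and CDK genes, and to repress CDKN1A and CDKN1B, partly through the partner factor Miz-1.

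Depth and list length went opposite ways. The depth recovered from the peak statistics was 22.2 to 26.4 M reads in parental libraries and 13.0 to 19.9 M reads in TKO libraries, and the lists held 3720 to 5719 and 25887 to 27213 peaks. Enrichment is given here as the read pileup at a summit divided by the genome-wide background of the same library, so it is adjusted for depth. The authors' fold divides the same pileup by a local background instead, and the percentile of a peak is its place by that fold within its own list. The strongest peak of a gene is the one of highest fold. With 2 libraries against 2, an exact two-sided permutation test cannot give a p below 0.333, so no comparison of the groups could pass 0.05.

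The stretches below are the parts of the GRCh37 (hg19) plus strand on which the results for CCND1, CDK4, CDK6, CDKN1A and CDK2 turn. They show the summit regions of 4 CCND1 sites and of a site in a CDKN1A intron. The others are the E-box cluster upstream of CDK4, the E-box at the CDK6 start and the single E-box of CDK2 that no peak covered. Capitals mark the E-box CACGTG, or a noncanonical hexamer CACGCG on either strand, which reads as CGCGTG on the other one. Stretches at the transcribed ends of CDK6 and CDK2 were kept to 30 bases.
CCND1 far upstream, chr11:69451302-69451454: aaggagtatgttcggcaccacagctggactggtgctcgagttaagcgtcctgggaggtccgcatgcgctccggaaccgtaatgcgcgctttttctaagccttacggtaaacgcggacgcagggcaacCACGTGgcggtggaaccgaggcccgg
CCND1 mid-upstream, chr11:69453254-69453354: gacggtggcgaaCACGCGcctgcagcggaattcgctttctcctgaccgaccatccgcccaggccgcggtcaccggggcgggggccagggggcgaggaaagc
CCND1 proximal, chr11:69455286-69455390: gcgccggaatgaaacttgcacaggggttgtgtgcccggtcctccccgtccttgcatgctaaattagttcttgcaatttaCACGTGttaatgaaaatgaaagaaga
CCND1 intron, chr11:69459152-69459266: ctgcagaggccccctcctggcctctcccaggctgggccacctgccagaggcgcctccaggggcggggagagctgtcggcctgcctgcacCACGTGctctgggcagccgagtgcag
CDK4 upstream, chr12:58146272-58146374: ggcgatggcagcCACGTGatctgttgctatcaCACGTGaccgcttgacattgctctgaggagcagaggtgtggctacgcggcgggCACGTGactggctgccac
CDK6 start, chr7:92465840-92465869: gtcggctctccgCACGTGtccgcggcctcg
CDKN1A intron, chr6:36648322-36648422: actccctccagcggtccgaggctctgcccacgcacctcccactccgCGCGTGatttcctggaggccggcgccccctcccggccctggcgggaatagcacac
CDK2 E-box, chr12:56360894-56360923: aatccgcctggaCACGTGagtggcctctgt

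More of the 10 genes had a Myc peak in TKO cells. A peak was found at 5 and 4 of the 10 in parental replicates 1 and 2, and at 8 and 7 in TKO replicates 1 and 2. That is 4.5 ± 0.707 genes (SD, n = 2) in parental 231 and 7.5 ± 0.707 genes (SD, n = 2) in TKO, and the exact permutation test gave p = 0.333. Over all protein-coding genes, 13.9% and 15.5% had a peak in the parental libraries and 54.6% and 55.4% in the TKO libraries. The members were above the share of all genes in each library, and a rise in TKO was seen over all genes too. As the members were chosen as known Myc targets, their higher share is a description only.

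**Figure D1:**
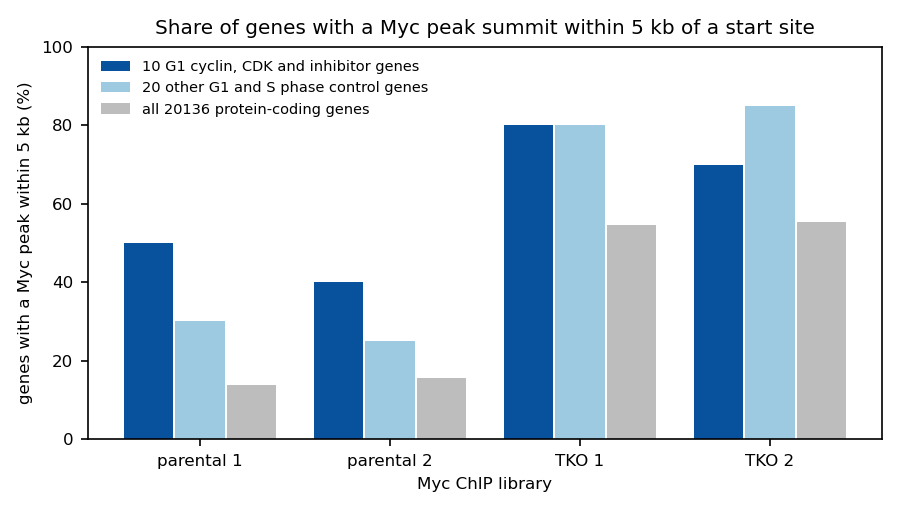
Bars show the percentage of genes with a Myc peak summit within 5 kb of a basic start site in each of the 4 libraries, for the 10 genes, for 20 other G1 and S phase control genes and for all protein-coding genes. The 10 genes stand at 5, 4, 8 and 7 genes, and the background rises from 13.9% and 15.5% to 54.6% and 55.4%.

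By pattern, 3 of the 10 genes, CCND1, CCND3 and CDK4, had a peak in all 4 libraries, against 10.9% of all genes. Another 3, CCNE2, CDK6 and CDKN1A, had one in both TKO libraries and 1 parental library, a pattern of 7.36% of all genes. CCND2, CCNE1 and CDKN1B had a peak in 1 TKO library only, as did 8.46% of all genes. None of the 10 had a peak in both TKO libraries and no parental library, the pattern of 32.4% of all genes. CDK2 alone had no peak, which was so for 40.6% of all genes. The counts of members are small, and these shares are given as a description.

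The number of peaks at the genes was also higher in TKO. Peaks at the 10 genes averaged 8.0 ± 0.0 (SD, n = 2) in parental libraries and 28.0 ± 4.24 (SD, n = 2) in TKO libraries, a ratio of 3.5, with p = 0.333 in the exact permutation test. Peaks within 5 kb of any protein-coding start numbered 2465 and 2809 in parental libraries and 14730 and 14524 in TKO libraries, a ratio of 5.55, so the ratio at the 10 genes was below that over all genes. With each list held to its 3720 peaks of highest fold, the ratio at the 10 genes was 1.17. Merged where they overlapped by at least 1 bp, the peaks fell into sites, of which 5 were called in all 4 libraries, 14 in both TKO libraries and no parental library, 9 in 1 TKO library, 3 in both TKO libraries and 1 parental library, and 1 in a parental library only. The same split of sites over all genes is not given here.

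**Figure D2:**
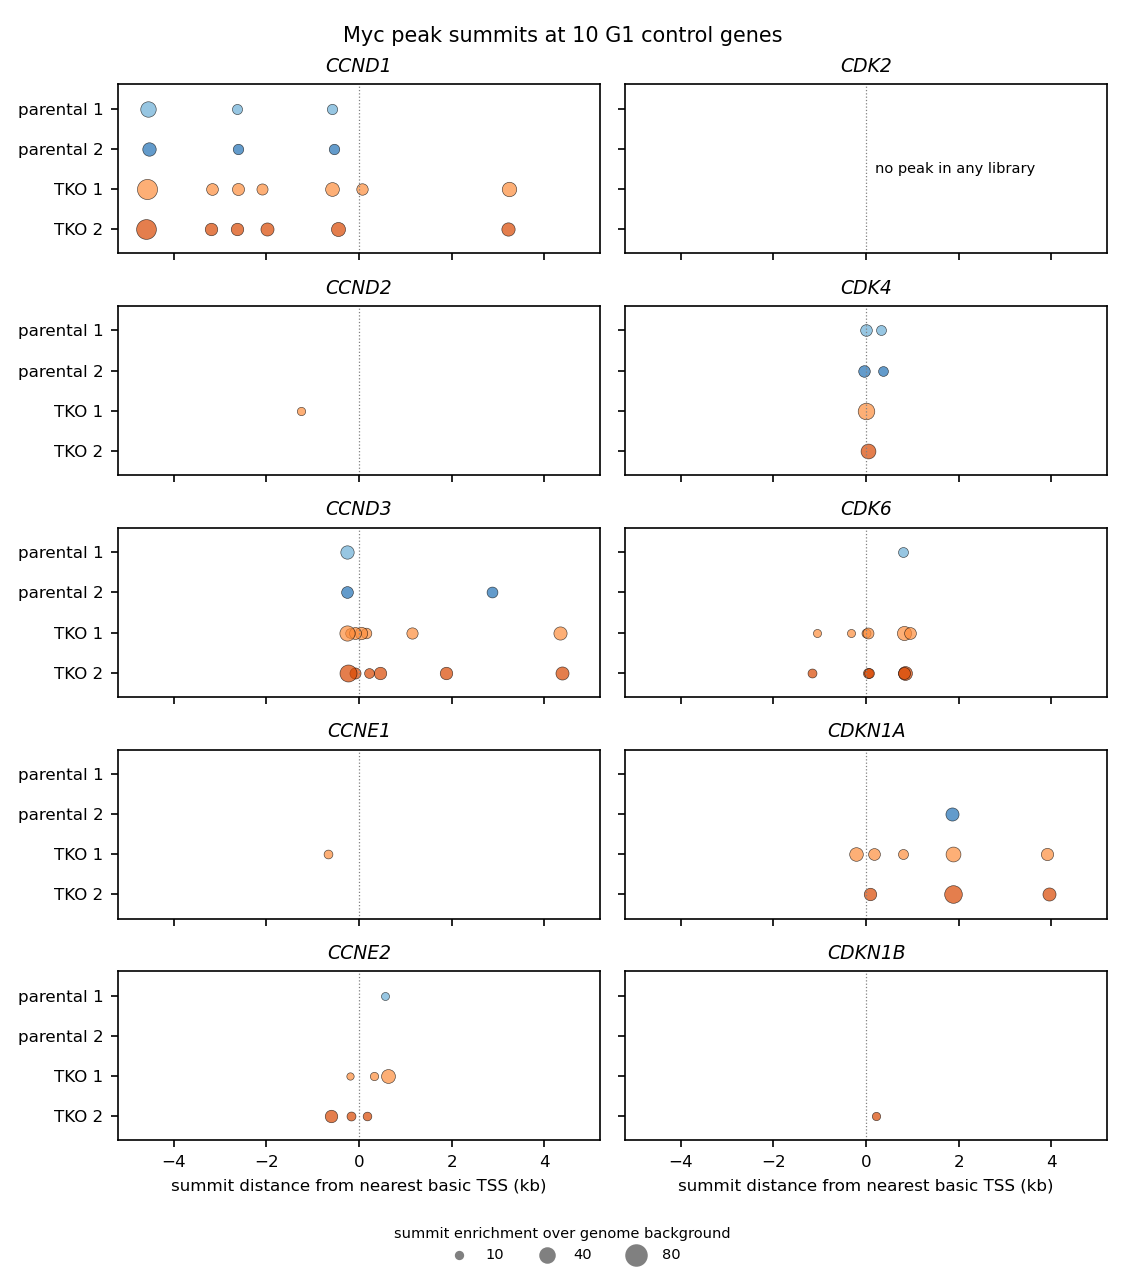
Each point is a Myc peak summit, placed by its distance in kb from the nearest basic start site of the gene (negative values are upstream), with 1 row per library and an area that grows with summit enrichment. CCND1, CCND3 and CDK4 hold points in all 4 rows, CDK6 and CDKN1A fill up in the TKO rows, and CDK2 is empty.

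CCND1, which encodes cyclin D1 and is often amplified or overexpressed in breast cancer, carried the strongest peaks of the set. It lies on the plus strand of chromosome 11 with its canonical TSS at 69455924. Parental libraries had 3 peaks each and TKO replicates 1 and 2 had 7 and 6. Of the genes with any peak, 0.31% and 0.21% had 7 or more peaks in the TKO libraries, and 0.66% and 0.59% had 6 or more. CCND3 also had 7 and 6 peaks in TKO replicates 1 and 2, with 7 basic start sites against 2 for CCND1. The 3 parental positions recurred in both TKO libraries, and the additional TKO peaks lay between and beyond them.

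The strongest CCND1 site was not at the start of the gene but in intergenic sequence 4543 to 4606 bp upstream. Its enrichment was 46.0 and 34.7 in parental replicates 1 and 2 and 77.4 and 75.2 in TKO replicates 1 and 2. Both TKO values were above both parental values, a ratio of 1.91. By their strongest peak, 95.2% of the genes with a peak in all 4 libraries were separated in this way. The summits of the 4 libraries fell within 63 bp of each other, and the E-box shown in the far upstream stretch stood 67, 50, 87 and 113 bp from them in the same order of libraries. A strongest peak over 2 kb from a start site was found for 8.5% to 12.3% of the genes with a peak, depending on the library. By percentile the site stood at 94.6, 72.4, 96.3 and 96.8 within its own list.

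The mid-upstream CCND1 site, 2613 to 2628 bp from the start, had summits within 15 bp in all 4 libraries and no CACGTG in the peak. Its stretch holds CACGCG, a hexamer that Myc and Max also bind. Enrichment was 19.7 and 20.95 in parental libraries and 28.3 and 29.9 in TKO libraries, a ratio of 1.43. The proximal site had its strongest summits 446 to 588 bp upstream, with an E-box 31 and 12 bp away in parental libraries and 26 and 111 bp away in TKO libraries. Enrichment there was 20.4 and 20.95 in parental libraries and 36.4 and 38.1 in TKO libraries, a ratio of 1.8. Parental and TKO values did not overlap at either site, as for the strongest peak of 95.2% of the genes with a peak in all 4 libraries. In TKO replicate 2 the proximal peak ran on across the start, with a width of 1228 bp against 140 and 419 bp in the parental libraries.

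Further CCND1 sites were called in TKO replicates 1 and 2 but not in parental cells. One lay inside the gene, in an intron 3211 to 3245 bp downstream of the nearest start. Its enrichment was 40.2 and 34.0, more than that of the TKO peaks at the mid-upstream site, and its E-box stood 24 and 58 bp from the summits. Another, 3181 to 3198 bp upstream, had an enrichment of 26.8 and 29.9, and the last, 1983 to 2090 bp upstream, had 23.8 and 33.0. Of the 6 E-boxes within 5 kb of a CCND1 start, 2 lay inside a peak in each parental library and 4 in each TKO library. The other 2, 4308 and 4562 bp downstream, lay in no peak.

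CCND2 encodes cyclin D2 and lies on chromosome 12. It had 1 peak, in TKO replicate 1, with its summit 1254 bp upstream of the start in an intron of the antisense transcript CCND2-AS1 and an enrichment of 13.4. A gene known only by an identifier had a start at the same 1254 bp from this summit, so the peak cannot be assigned by position. The nearest summit was 157 kb from a start in TKO replicate 2, and 1068 and 819 kb away in the parental libraries. Of 4 E-boxes within 5 kb of the start, 2 lay inside the TKO replicate 1 peak and none in a peak of another library. The call thus rested on a single library.

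CCND3 encodes cyclin D3, and its peaks depended on which start site was used. None of its parental summits lay within 5 kb of the canonical TSS on chromosome 6. The parental summits were 104030 to 108809 bp upstream of the canonical TSS, within 5 kb of alternative starts of the gene. A start of TAF8, which encodes a subunit of the general transcription factor TFIID, also lay within 5 kb of them. The site called in all 4 libraries had its summits 13 to 33 bp from a TAF8 start and 240 to 260 bp upstream of the alternative CCND3 start. Its enrichment was 34.3 and 26.6 in parental replicates 1 and 2 and 44.6 and 55.6 in TKO replicates 1 and 2, a ratio of 1.65. The values did not overlap, as for the strongest peak of 95.2% of the genes with a peak in all 4 libraries. At this site the summits of the 4 libraries fell within 20 bp. A peak at this place cannot be attributed to one of the 2 genes from its position.

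At the canonical CCND3 start, peaks were called in TKO libraries only. The site that both TKO libraries shared had summits 151 and 451 bp downstream of the nearest start, an enrichment of 21.6 and 29.9, and a percentile of 24.0 and 0.33. These are low percentiles for such enrichments. The local background there stood 4.48 and 10.3 times above the genome-wide one, while the median over peaks near start sites was 2.72 in both TKO libraries. Parental replicate 2 also had the only member site absent from TKO, 2870 bp downstream of an alternative start, with an enrichment of 22.6. None of the 4 E-boxes near CCND3 starts lay in a parental peak, and 2 and 3 of them lay in TKO peaks.

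The 2 E-type cyclin genes differed in how often they were called. CCNE1, cyclin E1, on chromosome 19, had 1 peak in TKO replicate 1, with its summit 675 bp upstream of the start and an enrichment of 14.9. The nearest summit to a start was 28.7 kb away in TKO replicate 2 and 129 and 96.5 kb away in the parental libraries. No CACGTG lay within 5 kb of a CCNE1 start, as for CDKN1A and CDKN1B. Among all genes, 31.6% had none within 5 kb of the canonical start.

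CCNE2, cyclin E2, shares its promoter region with NDUFAF6, which encodes a complex I assembly factor. Its main site had an enrichment of 12.4 in parental replicate 1 and of 37.2 and 29.9 in TKO replicates 1 and 2, and no peak in parental replicate 2. The 3 summits lay 42 to 304 bp from an NDUFAF6 start, so the gene the peak belongs to cannot be told from its position. The parental peak was 140 bp wide, the narrowest width in that list, and the TKO peaks were 882 and 1194 bp wide. A further site, 178 to 189 bp upstream of a CCNE2 start, was called in both TKO libraries with an enrichment of 10.4 and 15.45.

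CDK4, the partner of the D-type cyclins, had the most regular pattern of the kinases. It lies on the minus strand of chromosome 12 with its canonical TSS at 58146093. Enrichment at the start was 26.3 and 25.8 in parental replicates 1 and 2 and 52.8 and 42.2 in TKO replicates 1 and 2, a ratio of 1.81 with no overlap of the groups. Such a separation held for the strongest peak of 95.2% of the genes with a peak in all 4 libraries, whose median ratio was 1.93. Both parental libraries had a pair of separate peaks, one at the start and one 324 and 361 bp downstream. In both TKO libraries a single peak covered the whole stretch, with widths of 951 and 1024 bp against 244 and 284 bp for the stronger parental peak. The only other gene with a start within 5 kb was MARCHF9, at 2713 to 3154 bp.

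CDK4 had 5 E-boxes within 500 bp of its canonical start, a number that 7 of 19856 genes, 0.035%, reached or passed, while 18.3% of genes had at least 1. They lay 386 and 39 bp downstream and 56, 76 and 129 bp upstream of the nearest start, and the last 3 are those in the CDK4 upstream stretch. Each parental library had 2 of the 5 inside a peak, the 2 downstream ones, and the TKO peaks covered all 5. The summit was 18 bp from the nearest E-box in parental replicate 2, 92 bp at the start peak of parental replicate 1, and 58 and 136 bp in TKO. The nearest E-box of the upstream cluster was 187 and 113 bp from the parental summits and 153 and 231 bp from the TKO summits, and these distances overlapped.

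**Figure D3:**
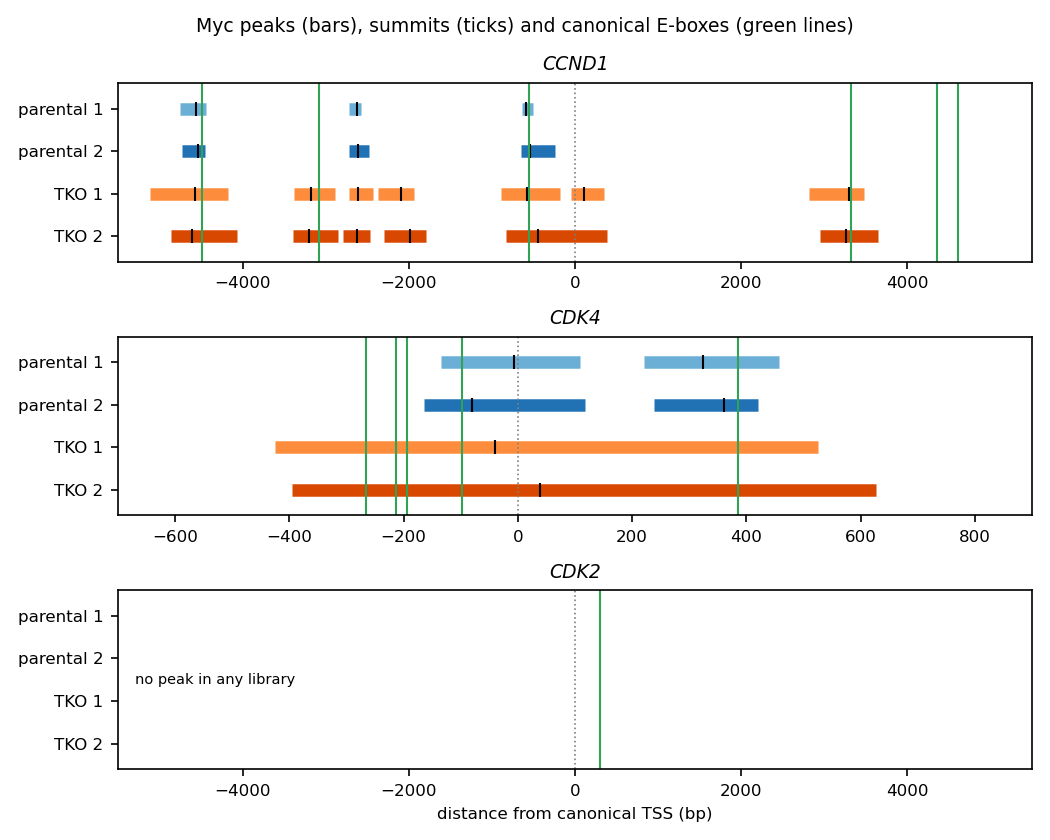
Peaks are drawn as bars, summits as ticks and canonical E-boxes as green lines, by distance in bp from the canonical start of CCND1, CDK4 and CDK2 along the direction of transcription (CDK4 has a narrower axis), with 1 row per library. In CDK4 the pair of parental bars becomes 1 bar that spans all 5 E-boxes in TKO, while the E-box of CDK2 has no bar.

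CDK6, the second partner of the D-type cyclins, went from 1 peak to a series. It is on the minus strand of chromosome 7 and has 2 basic start sites. Parental replicate 1 had 1 peak, parental replicate 2 had its nearest summit 67.9 kb away, and TKO replicates 1 and 2 had 6 and 5. The parental position, 794 bp downstream of the nearest start, had an enrichment of 19.0 there and of 38.7 and 37.1 in TKO. By the authors' fold the order was the opposite, with 7.38 in parental replicate 1 and 6.42 and 6.44 in TKO, and the percentile was 80.2 against 66.9 and 64.5. The local background at this site was 1.82 times the genome-wide one in parental replicate 1 and 5.4 and 4.89 times in TKO. At the canonical start, TKO summits lay 50 and 52 bp downstream with an enrichment of 23.1 and 18.55, and the E-box of the CDK6 start stretch was 17 and 19 bp from them. These summits were also 61 and 63 bp from the start of the antisense gene CDK6-AS1. In the TKO libraries 1.6% and 1.5% of the genes with a peak had 5 or more.

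CDK2, the kinase bound by E-type cyclins, was the only member with no peak. The nearest summit to one of its starts was 75045 and 75179 bp away in the parental libraries and 7139 and 6639 bp away in TKO. It has 1 E-box, 293 bp downstream of the nearest start, which no library covered with a peak. The annotation was read at only 1 base of this hexamer, which lay in coding sequence. A peak list gives no reads outside peaks, so how close this E-box came to a call is not known.

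CDKN1A encodes p21, the inhibitor that p53 induces and that Myc is known to repress. Its only site with a parental peak lay in an intron, 1864 to 1884 bp downstream of a start on chromosome 6, and its summits in 3 libraries fell within 20 bp. Enrichment was 33.0 in parental replicate 2, 42.4 in TKO replicate 1 and 59.8 in TKO replicate 2. In parental replicate 1 the nearest summit was 82.0 kb from a start. The CGCGTG of the CDKN1A intron stretch lay within 50 bp of each of the 3 summits, and no CACGTG lay within 5 kb of any start.

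The parental CDKN1A peak was close to the bottom of its list by fold although its enrichment was not low. Its fold was 2.79 and its percentile 0.65, against a median enrichment of 22.6 for peaks near start sites in that library. The local background there was 11.3 times the genome-wide background, where the median was 3.42 and the 95th percentile 7.27. In TKO replicates 1 and 2 the same site had a local background of 7.2 and 6.52 times the genome-wide one, both above the 95th percentiles of 6.0 and 5.43. The part of this background in the missing call of parental replicate 1 was not tested.

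Around the CDKN1A start itself, peaks were called in TKO only, with 3 in TKO replicate 1 and 1 in TKO replicate 2 that merged into 1 site of enrichment 35.7 and 29.9. The strongest of these summits in TKO replicate 1 was 73 bp from the start of DINOL, a noncoding gene upstream of CDKN1A. PANDAR and LAP3P2 also had a start within 5 kb of that summit. A further TKO site, 3915 to 3950 bp downstream, had an enrichment of 29.0 and 33.0 and a percentile of 4.92 and 10.6. By fold, the site at the start was the strongest of CDKN1A in TKO replicate 1, with 8.39 against 5.43 for the intron site. In TKO replicate 2 the intron site was the strongest, with 8.05 against 6.83.

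CDKN1B encodes p27, which holds cyclin E-CDK2 inactive in resting cells. It had 1 peak, in TKO replicate 2, with its summit 221 bp downstream of the start and an enrichment of 13.4, and its percentile was 44.6. In TKO replicate 1 the nearest summit was 7.3 kb from a start, and in the parental libraries 69.0 and 95.5 kb. Like the peaks of CCND2 and CCNE1, it was called in 1 library with 13 to 20 reads at the summit.

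**Figure D4:**
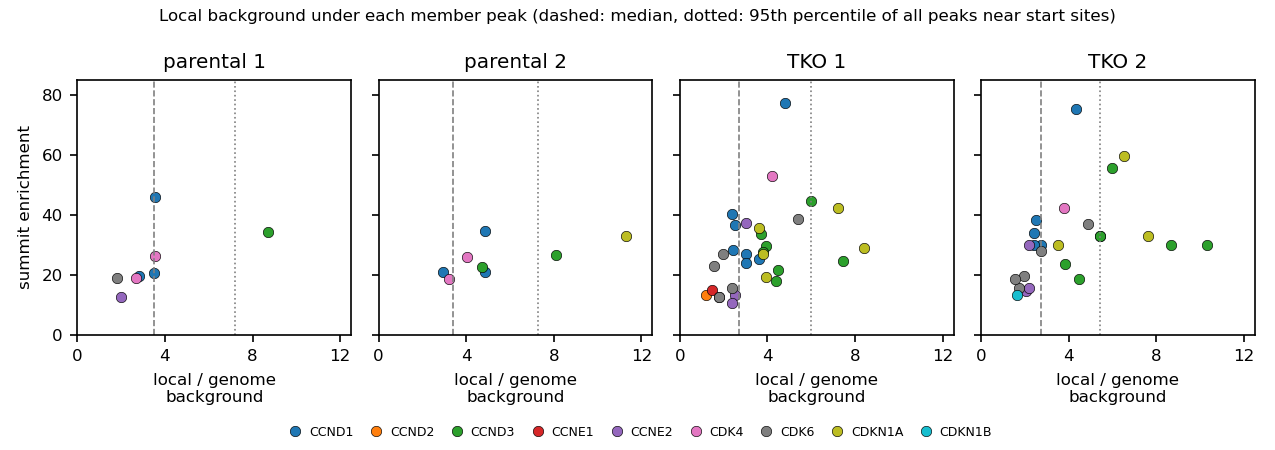
Each point is a member peak, by its local background over the genome-wide background (x axis) and its summit enrichment (y axis), with 1 panel per library and a colour per gene. The lines mark the median and the 95th percentile of all peaks near start sites, and CDKN1A in parental replicate 2 (11.3) and CCND3 in parental replicate 1 (8.71) and 2 (8.08) are the parental points beyond the latter.

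Where the genes could be compared across all 4 libraries, their enrichment was higher in TKO. For CCND1, CCND3 and CDK4, the geometric mean enrichment of the strongest peak was 34.6 and 27.2 in parental replicates 1 and 2 and 51.5 and 56.1 in TKO replicates 1 and 2. The difference was 0.81 on the log2 scale, TKO over parental, with p = 0.333 in the exact permutation test. Taken at the peak nearest to the TSS instead, the log2 difference was 0.42. Over the 2187 genes with a peak in all 4 libraries the median was 0.94, with quartiles of 0.75 and 1.12. CCND1 stood at 0.93, the 48.7th percentile of these genes, CDK4 at 0.86, the 37.9th, and CCND3 at 0.63, the 15.4th. The TKO values exceeded both parental values for CCND1 and CDK4, while for CCND3 they overlapped. Of the 2187 genes, 95.2% had both TKO values above both parental values. In CCND3 the peak of highest fold was another site in TKO replicate 1, of enrichment 33.5, and in parental replicate 2, of 22.6.

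**Figure D5:**
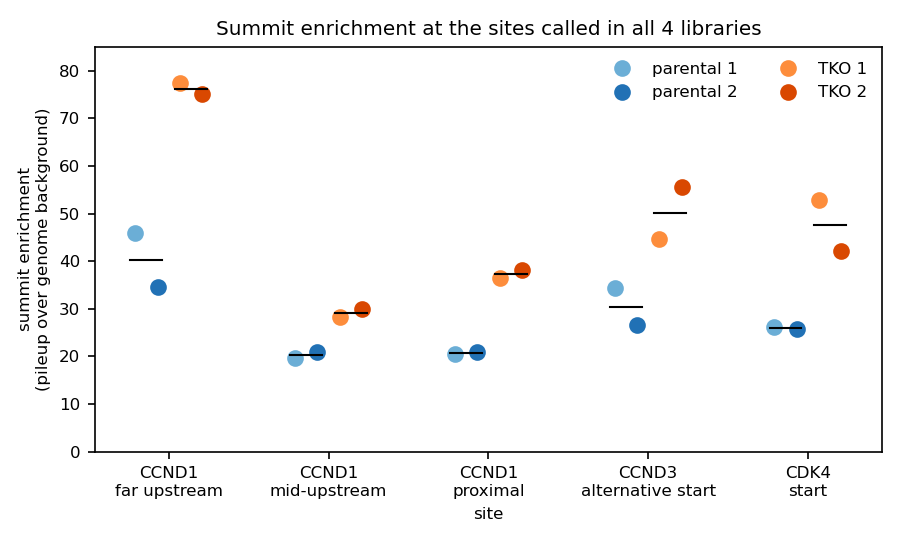
Points give the summit enrichment of each library at the 5 member sites called in all 4 libraries, and lines the mean of each cell line (n = 2). Both TKO points lie above both parental points at every one of the 5 sites, with ratios from 1.43 to 1.91. By their strongest peak, 95.2% of the 2187 genes with a peak in all 4 libraries were separated likewise. The median ratio over the 2187 genes was 1.93.

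Peaks were also wider in TKO. The mean width of the strongest peaks of CCND1, CCND3 and CDK4 was 257.0 ± 5.18 bp (SD, n = 2) in parental libraries and 801.0 ± 61.8 bp (SD, n = 2) in TKO libraries, a ratio of 3.12, and the exact permutation test gave p = 0.333. For all genes with a peak in all 4 libraries the median width was 260.0 and 268.0 bp in parental libraries and 806.0 and 772.0 bp in TKO libraries. The narrowest peak, which sets the read extension used here, was 140 and 151 bp in parental lists and 182 and 201 bp in TKO lists.

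Within their lists the strongest peaks of the 3 genes rose from a mean percentile of 53.2 ± 3.56 (SD, n = 2) in parental libraries to 88.6 ± 0.878 (SD, n = 2) in TKO libraries, with p = 0.333 in the exact permutation test. All genes with a peak in all 4 libraries had medians of 62.6 and 64.7 in parental libraries and 94.8 and 94.5 in TKO libraries. The lists differ in length, and percentiles depend on it. When each list was restricted to the 3720 peaks of highest fold, the difference turned from 35.35 to -13.2 percentile points over the 2 genes left.

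With lists of that equal length, 5 and 2 members had a peak in parental replicates 1 and 2, and 4 and 3 in TKO replicates 1 and 2. The means were then the same, and the ranges overlapped. All genes stood at 10.9% in parental replicate 2 and at 15.7% and 16.1% in TKO replicates 1 and 2 under this restriction, while parental replicate 1 kept its whole list.

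An E-box at the summit was uncommon at member peaks, as it was at all peaks near start sites. Within 50 bp of the summit, on either strand, CACGTG stood in 1 of 8 and 3 of 8 parental peaks and in 3 of 31 and 1 of 25 TKO peaks. Among all peaks near start sites the shares were 22.4% and 18.4% in parental libraries and 8.48% and 7.34% in TKO libraries. The members were above this share in parental replicate 2 and TKO replicate 1, and below it in parental replicate 1 and TKO replicate 2. At the strongest peak only CDK4 in parental replicate 2 and CDK6 in TKO replicate 1 had one. The share for all genes at their strongest peak is not given here. At least 1 noncanonical hexamer, CACGCG or else CATGTG or else CACGAG, stood in 3 of 8 and 3 of 8 parental peaks and in 8 of 31 and 7 of 25 TKO peaks, against 28.8% and 27.55% and 18.64% and 16.85% of all peaks near start sites.

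Motifs of other factors were also counted, each on its own, so that a base can belong to more than 1 motif. The AP-1 motif TGANTCA and the E2F motif TTTNGCGC stood near none of the member summits, on either strand. They were found at 2.72% to 4.41% and at 0.45% to 0.55% of all peaks near start sites, both low shares for lists of 8 to 31 peaks. The SP1 box GGGCGG stood near 1, 3, 6 and 7 member summits in parental replicates 1 and 2 and TKO replicates 1 and 2, against 20.6% to 23.9% of all such peaks. GC content within 100 bp of the member summits had medians of 61.45%, 61.7%, 63.7% and 64.2%, and all peaks near start sites had 62.2% to 63.7%.

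Counting all E-boxes within 5 kb of a start of the 10 genes, 23 in number, 4 lay inside a peak in each parental library and 15 and 14 in TKO replicates 1 and 2. CCND1 held 6 of them, CDK4 5, CCND2 and CCND3 4 each, CCNE2 2, and CDK2 and CDK6 1 each. The higher number of covered E-boxes came with wider and more numerous peaks, which were seen over all genes too. Peaks near all protein-coding starts rose in number by a ratio of 5.55. Their median width was 230 bp in both parental libraries and 369.5 and 385 bp in TKO replicates 1 and 2. The share of E-boxes inside a peak over all genes is not given here.

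Other genes of the pathway also had a peak more often in TKO. In a list of 20 further G1 and S phase control genes, 6 and 5 had a peak in parental replicates 1 and 2, and 16 and 17 in TKO replicates 1 and 2. The rise was seen over all genes too, from 13.9% and 15.5% to 54.6% and 55.4%. The 4 with a peak in all libraries were CDKN2C and CDKN2D, which encode the CDK4 and CDK6 inhibitors p18 and p19, CKS1B, a subunit needed for p27 degradation, and FBXW7, the ubiquitin ligase subunit that targets cyclin E and Myc. Another 9 had a peak in both TKO libraries and in no parental library, the pattern that none of the 10 members showed. Over all genes, 10.9% had a peak in all 4 libraries and 32.4% in both TKO libraries and no parental library. CDKN2D had an enrichment of 19.7 and 23.4 in parental libraries and 43.1 and 45.3 in TKO libraries. CKS1B had 27.7 and 27.4 against 56.5 and 44.3, and neither gene's groups overlapped. Of all genes with a peak in all 4 libraries, 95.2% were separated in this way.

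CDKN2C had an enrichment of 20.4 and 25.8 in parental libraries and 36.4 and 36.1 in TKO libraries, and FBXW7 had 18.25 and 17.7 against 34.2 and 23.7. In both genes the TKO values were the higher ones, as for 95.2% of all genes with a peak in all 4 libraries. CDKN2A, CDKN2B and ZBTB17, which encode p16 and p14ARF, p15 and Miz-1, had no peak in any library. The nearest summit to CDKN2A was 2591 kb away in both parental libraries and 2563 and 1350 kb away in TKO, and MDA-MB-231 cells are known to have lost the CDKN2A and CDKN2B genes. The nearest summit to a ZBTB17 start was 168 and 23.2 kb away in parental replicates 1 and 2 and 23.2 kb away in both TKO libraries.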

How the data were processed

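Myc ChIP-seq was done by the authors in parental and TKO MDA-MB-231 cells, with 2 libraries each. The authors aligned reads to hg19 with Novoalign 3.08.02 and called peaks with MACS2 2.1.1.20160309 in each library on its own, tools and build as named in the submitters' processing notes. How duplicate reads were treated is not given in the sources used here. Each deposited list gives a summit, the authors' fold enrichment (a ratio to local background), p-values and q-values as −log10 set by the authors, and a deposited score derived from q.

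Reads at each summit and both backgrounds were solved from fold and p; for 100% of peaks a whole read number matched −log10 p to within 0.002, and the step was tested on simulated data. Depth assumed a genome of 2700000000 bases and the narrowest peak as read extension. Intervals of counting error were not attached to these values. Start sites were those of basic transcripts in GENCODE lifted to GRCh37, which is hg19 in its main chromosomes, and motifs were read from that genome. Sites were peaks overlapping by at least 1 bp.

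The members and lists were chosen with earlier results of these data known. All 10 members are named. Of the other genes, those with a peak in both parental libraries or in no library are named. Genes with a start within 5 kb of a member's summit are named too, except those known only by an identifier. Libraries were grouped by title and compared by exact two-sided permutation tests over libraries. Alternatives were other start site sets and windows, a −log10 q of at least 5, lists of 3720 peaks, other choices of peak, scale and motif, each library left out and a replicate block. Input samples were not analysed here on their own. Tools were pysam 0.24.0 and samtools 1.23.1 for sequence, pandas 2.3.3, scipy 1.17.1 and numpy 2.4.6 for values, and matplotlib 3.10.9 for figures, under Python 3.11.15.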

Additional observations from a re-analysis of the deposited data

How the results depend on the processing

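Most comparisons kept their direction and stayed within 1.5 times the value reported: of the alternative values computed, 63 did so, 9 moved further and 1 changed sign. Equal lists of 3720 peaks had the most effect. Under them the TKO minus parental difference in members with a peak went from 3.0 to 0 genes, the ratio of peaks from 3.5 to 1.167, and the percentile difference from 35.35 to -13.24 points. With a TSS window of 1 kb the percentile difference was 55.68 points. At the peak nearest to the TSS the log2 enrichment difference was 0.4197, against 0.809 at the strongest peak. The number of members with a canonical E-box at the strongest peak in at least 1 library was 2. It was 1 when the strongest peak was taken by −log10 p, 4 with a motif window of 100 bp and 4 when the noncanonical hexamers were counted too.

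With each library left out, the gene difference ranged from 2.5 to 3.5, the peak ratio from 3.125 to 3.875, the percentile difference from 32.67 to 48.77 points, the width ratio from 2.947 to 3.729, the log2 enrichment difference from 0.7472 to 0.8708, and the E-box count from 1 to 2. It fell to 1 when parental replicate 2, or else TKO replicate 1, was dropped. The genes entering the mean values change where a library is left out, from 3 to 4 or 5. With a replicate block the values were 3 genes, 3.5, 35.35 points, 3.12 and 0.809, and none moved by over 1.5 times. Deviations of same-numbered libraries correlated at 0.072 over 2187 genes. With 2 libraries per cell line this cannot show whether same-numbered libraries were handled together, and the titles give replicate numbers only. At the 5 sites called in all 4 libraries, an alternative chosen after seeing the data, the log2 enrichment difference was 0.776. A peak list shows no reads outside peaks, so an uncalled gene is not shown to be unbound, and peaks near starts of 2 genes cannot be assigned by position.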
